A study of Homo sapiens with 3 samples.

Results

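The Notch pathway was examined in RWPE1 cells, an immortalized line of normal human prostate epithelial cells, through 10 genes read by their Ensembl identifiers from the deposited count table. They were the receptors NOTCH1, NOTCH2 and NOTCH3, the ligands JAG1, JAG2 and DLL1, and the targets HES1, HES4, HEY1 and NRARP. All 10 were found among the 58037 genes of the table. They were chosen by name. The table holds 3 bulk RNA libraries, 1 per condition: OLFM4-wild cells, OLFM4-knockout cells and cells labelled OLFM4-active. OLFM4 encodes olfactomedin 4, a secreted glycoprotein. Per the study's methods, knockout lines were made by transfecting double-nickase CRISPR/Cas9 plasmids with a GFP reporter for homology-directed repair, activation plasmids are named for making the OLFM4-wild reporter line, cells were kept under puromycin as stable lines, and RNA was taken from bulk cells sorted for GFP. The study calls the OLFM4-knockout and OLFM4-wild lines cell clones. Which plasmids each sequenced sample received, the active-labelled one included, is not given in the sources used here.

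Notch is a signal passed between touching cells. A receptor of the Notch family is cut when a Jagged or Delta-like ligand on the neighbouring cell binds it, and the freed intracellular domain enters the nucleus, where it joins the DNA-binding protein RBPJ and coactivators at target genes such as those of the HES and HEY families. In prostate epithelium the pathway is known for its part in the choice between basal and luminal cell states.

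Library totals were 16309906 counts for OLFM4-wild, 58837147 for OLFM4-knockout and 23224216 for active-labelled cells. Levels are given as CPM, counts rescaled to equal library size with TMM factors, and differences as log2 fold changes. Intervals are 95% exact binomial intervals on the counts, cover counting error only, and leave out the error of the scaling. With no replicates, no test across conditions could be made, and each difference is one between libraries. TMM raised every log2 fold change over library totals alone by 0.35 for OLFM4-knockout against OLFM4-wild, by 0.11 for the active-labelled library against OLFM4-wild and by 0.24 for OLFM4-knockout against the active-labelled library. The OLFM4 transcript itself had 214 counts in OLFM4-wild cells (11.8 CPM), 131 in OLFM4-knockout cells (2.55 CPM) and 16 in active-labelled cells (0.67 CPM). It was thus lowest in the library whose label names activation, and that library is called by its label throughout. In bulk RNA, fewer cells of a type and less RNA per cell cannot be told apart.

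The main difference among the 10 genes lay between the Jagged ligands. JAG1 was lower and JAG2 higher in both other libraries than in OLFM4-wild cells, and the ratio of JAG1 to JAG2 counts went from 3.47 in OLFM4-wild cells to 1.26 in OLFM4-knockout cells and 1.58 in the active-labelled library. With TMM the receptors differed by at most 0.33 on the log2 scale in any of the 3 comparisons. Of the targets, HES1 and HES4 stayed within 0.28 of the OLFM4-wild level in both libraries, and NRARP was lower in OLFM4-knockout cells. On that scaling 0 of the 10 genes passed a log2 fold change of 1 in either direction in any of the comparisons. Over the 16600 genes that averaged 1 CPM or more, 5.77% were past 1 and 7.56% past -1 for OLFM4-knockout against OLFM4-wild.

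**Figure D1:**
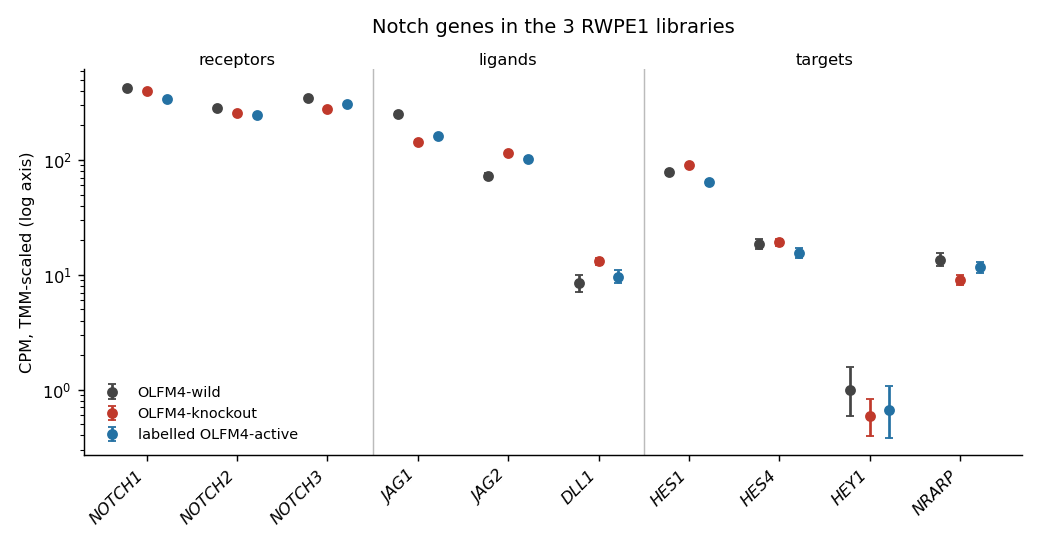
Level of each of the 10 Notch genes in the OLFM4-wild (grey), OLFM4-knockout (red) and active-labelled (blue) libraries, in TMM-scaled CPM on a log axis, with 95% counting intervals as bars. The receptors lie between 246 and 423 CPM in all libraries, JAG1 is at 252 CPM in OLFM4-wild cells and at 144 and 161 CPM in the others, JAG2 is lowest in OLFM4-wild cells, and HEY1 stays under 1 CPM.

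The receptors were expressed well above the floor in each library. NOTCH1 (ENSG00000148400, chr9:136494433-136546048 in GRCh38, minus strand), a receptor widely expressed in epithelia, had 7694 counts in OLFM4-wild, 20253 in OLFM4-knockout and 8067 in active-labelled cells. These correspond to 423 CPM (interval 414 to 433), 395 CPM (389 to 400.0) and 338 CPM (330.3 to 345). Its log2 fold change was -0.10 (-0.14 to -0.06) for OLFM4-knockout and -0.33 (-0.37 to -0.28) for the active-labelled library, each against OLFM4-wild. The active-labelled library thus held the lowest NOTCH1 level, and the 3 counting intervals did not overlap. NOTCH2 (ENSG00000134250, chr1:119911553-120100779, minus strand), a close paralog, had 5143, 13240 and 5866 counts in the same order, or 283, 258 and 246 CPM. Its log2 fold changes of -0.13 (-0.18 to -0.09) and -0.21 (-0.26 to -0.15) lay near those of NOTCH1. NOTCH2NLA, a partial copy of NOTCH2 that is counted apart, had 47, 122 and 100 counts, and reads matching both genes equally were not counted, since only unique matches were.

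NOTCH3 (ENSG00000074181, chr19:15159038-15200995, minus strand), the receptor also known from vascular smooth muscle, had 6259, 14277 and 7312 counts, or 344, 278 and 306 CPM. It was the receptor with the lowest value in OLFM4-knockout relative to OLFM4-wild cells, at -0.31 (-0.35 to -0.27), and had -0.17 (-0.22 to -0.12) in the active-labelled library. The order of the pair of non-wild libraries thus differed between receptors: NOTCH1 was higher in OLFM4-knockout than in active-labelled cells by 0.22 (0.19 to 0.26) with TMM but not with totals, and NOTCH3 was lower by 0.14 (log2 fold change -0.14, -0.18 to -0.10). With library totals, the NOTCH1 value for that pair turned to -0.01 and that of NOTCH2 from 0.07 to -0.17. The ratio of NOTCH1 to NOTCH2 counts within a library, which needs no scaling, was 1.5 in OLFM4-wild, 1.53 in OLFM4-knockout and 1.38 in active-labelled cells. The OLFM4-knockout ratio was 1.02 times that of OLFM4-wild cells (0.981 to 1.07), so a shift in the balance of these receptors could not be seen at this depth, and the active-labelled ratio was 0.919 times that of OLFM4-wild cells (0.876 to 0.965). NOTCH3 to NOTCH1, a pair chosen after its values were seen, had ratios of 0.814, 0.705 and 0.906.

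The receptor transcripts are long, and long transcripts as a class stood lower in the OLFM4-knockout library. Among 1289 protein-coding genes whose longest transcript reaches 8000 bases, the class of all 3 receptors, the median log2 fold change for OLFM4-knockout against OLFM4-wild was -0.21, against 0.37 among 2146 genes under 2000 bases. The values of NOTCH1 and NOTCH2 lay above that median of long genes and that of NOTCH3 below it. For the active-labelled library against OLFM4-wild the medians of these classes were 0.06 and 0.03, and all 3 receptors lay below them. The classes were set after the values were seen, and the part of transcript length in the receptor values was not tested. NOTCH4, the remaining receptor of the family, had 12, 16 and 5 counts.

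The ligands did not move together. JAG1 (ENSG00000101384, chr20:10637684-10673999, minus strand), a Jagged ligand of many epithelia, had 4582 counts in OLFM4-wild, 7406 in OLFM4-knockout and 3835 in active-labelled cells. Its level was 252 CPM (245 to 259.6), 144 CPM (141 to 148) and 161 CPM (155 to 166). JAG1 was 1.75 times lower in OLFM4-knockout than in OLFM4-wild cells, a log2 fold change of -0.81 (-0.86 to -0.75), which was -1.16 with library totals. In the active-labelled library it was 1.57 times lower, at -0.65 (-0.71 to -0.59). JAG1 was the gene of the 10 with the largest size of difference in both of these comparisons. These values stood at percentiles 10.6 and 12.7 of all genes that averaged 1 CPM or more.

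JAG2 (ENSG00000184916, chr14:105140982-105168824, minus strand), its closest paralog among the ligands, had 1321, 5892 and 2422 counts, or 72.7, 115 and 101 CPM. It was higher in OLFM4-knockout than in OLFM4-wild cells by 0.66 (0.57 to 0.75) and higher in the active-labelled library by 0.48 (0.38 to 0.58). Library totals left both above 0, at 0.31 and 0.36. JAG2 shares 469 exon bases with the lncRNA ENSG00000257622 on the same strand, which had 257, 1096 and 466 counts, and reads on the shared bases cannot be assigned to either gene alone. The transcript lengths of JAG1 and JAG2 fall in the same class of 4000 to 8000 bases, whose median log2 fold change was 0.00 for OLFM4-knockout and 0.06 for the active-labelled library.

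DLL1 (ENSG00000198719, chr6:170282206-170306565, minus strand), a Delta-like ligand, was scarce, with 153, 673 and 230 counts. Its level was 8.42 CPM (7.14 to 9.87) in OLFM4-wild, 13.1 CPM (12.1 to 14.1) in OLFM4-knockout and 9.63 CPM (8.42 to 11) in active-labelled cells. DLL1 was higher in OLFM4-knockout than in OLFM4-wild cells by 0.64 (0.38 to 0.90), which was 0.28 with library totals. For the active-labelled library the value of 0.19 had an interval from -0.11 to 0.50 that included 0. The other Delta-like ligands were scarcer still: DLL3 had 5, 31 and 7 counts and DLL4 had 0, 2 and 10.

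**Figure D2:**
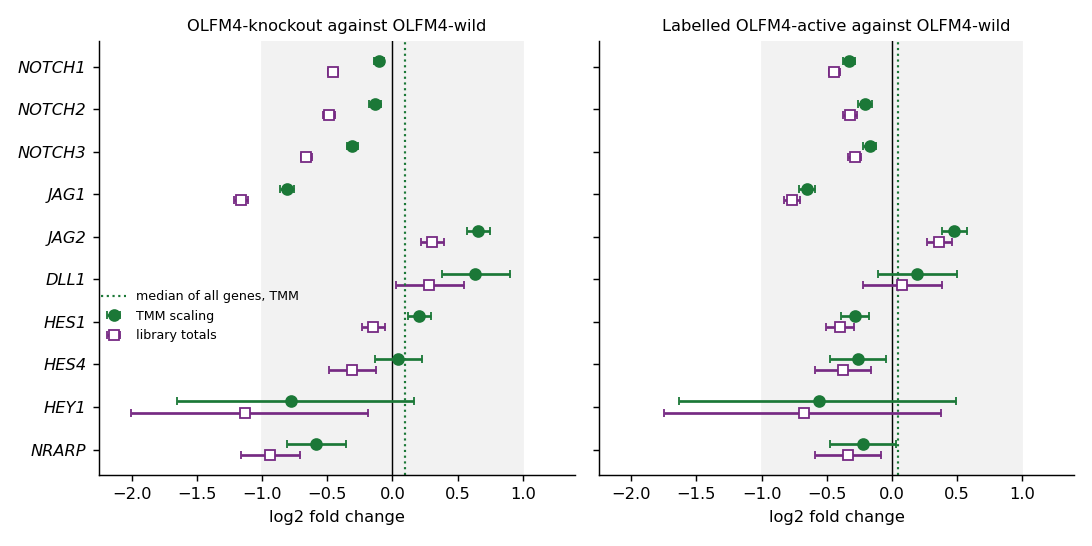
Log2 fold change of the 10 Notch genes against the OLFM4-wild library, for OLFM4-knockout (left) and the active-labelled library (right), with TMM (green circles) and library totals (purple squares) and 95% counting intervals as bars. The band marks -1 to 1 and the dotted line the median of all genes with TMM (0.10 and 0.05). JAG1 lies farthest left of the well-counted genes, JAG2 lies right of 0 in both panels under both scalings, and JAG1 and HEY1 pass -1 in the left panel with totals alone.

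Because both Jagged ligands were counted in the same library, their ratio does not depend on the scaling. JAG1 had 3.47 counts per JAG2 count in OLFM4-wild cells (3.26 to 3.69), 1.26 in OLFM4-knockout cells (1.21 to 1.30) and 1.58 in active-labelled cells (1.5 to 1.67). The ratio was 2.76 times lower (2.57 to 2.96) in OLFM4-knockout than in OLFM4-wild cells and 2.19 times lower in the active-labelled library, and the OLFM4-knockout ratio was 0.794 times the active-labelled one. Per annotated exon length, as TPM, JAG1 stood 2.39 times as high as JAG2 in OLFM4-wild cells, 0.865 times in OLFM4-knockout cells and 1.09 times in the active-labelled library. When the longest transcript was used for the length, these ratios were 3.37, 1.22 and 1.54. The ligand that was more abundant per length in OLFM4-knockout cells thus depends on the length taken. The fold decline of the ratio cannot depend on it, since the same lengths apply in every library. Beside this, JAG1 counts per NOTCH1 count, a pair chosen after its values were seen, were 0.596, 0.366 and 0.475.

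The summed level of basal markers differed between these libraries. The 6 basal genes KRT5, KRT14, KRT15, TP63, ITGA6 and LAMB3 were all measured and summed to 18139 CPM in OLFM4-wild, 40149 CPM in OLFM4-knockout and 21630 CPM in active-labelled cells, and 4 of 7 luminal genes passed 1 CPM, with sums of 469.5, 429 and 309.9 CPM. KRT5 and KRT14 made up most of the basal sum, and other basal genes differed from it, with 127, 359 and 97.2 CPM for KRT15 and 414, 472 and 449.9 CPM for TP63. KRT8 (282, 231 and 146 CPM) and KRT18 (177, 191 and 157 CPM) made up most of the luminal sum. From OLFM4-wild to OLFM4-knockout cells KRT8 was lower and KRT18 higher on this scale. Markers of other cell types were scarce. The summed level was at most 1.98 CPM for 5 endothelial genes, with CDH5 at 0, and ranged from 22.9 to 34.0 CPM for 6 fibroblast genes, with COL3A1 and LUM at 0, from 14.8 to 28.0 CPM for 6 smooth muscle genes, with DES at 0, from 19.8 to 31.4 CPM for 5 leukocyte genes, with CD3E and LYZ at 0, and from 3.74 to 13.5 CPM for 4 neuroendocrine genes. Of the luminal genes, KLK3 had at most 2 counts in a library and KLK2 had 0. The part of the basal markers in the ligand values was not tested.

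HES1, a repressor of the basic helix-loop-helix class and the best known direct Notch target, had 1421 counts in OLFM4-wild, 4631 in OLFM4-knockout and 1535 in active-labelled cells (ENSG00000114315, chr3:194136148-194138732, plus strand). Its level was 78.2 CPM (74.2 to 82.4), 90.2 CPM (87.6 to 92.9) and 64.2 CPM (61.1 to 67.5). On the TMM scale HES1 was thus highest in OLFM4-knockout and lowest in active-labelled cells. Against OLFM4-wild the value for OLFM4-knockout was 0.21 (0.12 to 0.29) with TMM, but -0.15 with library totals, so its direction depends on the scaling. HES1 belongs to the class of transcripts under 2000 bases, whose median in that comparison was 0.37. The value for the active-labelled library was -0.28 (-0.39 to -0.18) and kept its sign with totals, at -0.40. With TMM, HES1 was the only target whose intervals lay wholly on opposite sides of 0 in these comparisons, which share the OLFM4-wild library. Directly compared, OLFM4-knockout lay above the active-labelled library by 0.49 (0.41 to 0.57), which was 0.25 with totals.

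The promoters of HES1 and HES4 hold the core letters recognised by RBPJ, the DNA-binding protein of the Notch complex. TGGGAA, or TTCCCA on the other strand, was searched on the 250 bases before the start of each gene in RefSeq promoter sequences of GRCh38.p14, which had entries for 8 of the 10 genes. It was found in 2 of these 8, with 2 copies in HES1 (at -84 and -70 from the start) and 1 in HES4 (at -76), and in 9 of 52 other pathway genes with an entry. Of all 27305 promoters, 21.1% hold at least 1 copy and 2.92% hold at least 2. The numbers of genes with the motif thus lie near the share of all promoters. HES5, another target described below, had 2 copies, at -224 and -80. The stretches of 30 bases that start 1 base before the first HES1 copy, the HES4 copy and the second HES5 copy are shown because HES1 and HES4 are the genes of the 10 with the motif in this window, and HES5 stands beside them as a target of the same family. RefSeq starts HES4 at position 1000097, which is 75 bases inside the gene as GENCODE places it, so the HES4 stretch lies almost wholly within the GENCODE gene, while the HES1 and HES5 starts are the same in both. Capitals mark the motif, and each is read 5′ to 3′ on the strand of the gene. They lie at chr3:194136063-194136092 (plus), chr1:1000145-1000174 (minus) and chr1:2530315-2530344 (minus).
HES1: gTGGGAAagaaagttTGGGAAgtttcacac
HES4: gTGGGAAagaatgcggagccgggttcacac
HES5: gTGGGAAcggccgcggcgcccggactccag
A match describes letters in this window and was not tested as a binding site.

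HES4 (ENSG00000188290, chr1:998962-1000172, minus strand), a paralog of HES1 that mice lack, had 337, 984 and 370 counts, or 18.5, 19.2 and 15.5 CPM. In OLFM4-knockout against OLFM4-wild cells its value of 0.05 had an interval from -0.13 to 0.23, so counting error did not separate it from 0 with TMM, and it was -0.31 with totals. In the active-labelled library it was lower by 0.26 (log2 fold change -0.26, -0.48 to -0.04). The HES4 value thus lay near that of HES1 in the active-labelled library and below it in OLFM4-knockout cells, where the ratio of HES4 to HES1 counts was 0.896 times that of OLFM4-wild cells with an interval from 0.781 to 1.03. The ratio itself was 0.237, 0.212 and 0.241 in the 3 libraries.

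HEY1 (ENSG00000164683, chr8:79762371-79767857, minus strand), a related repressor, was close to the limit of these libraries. It had 18 counts in OLFM4-wild, 30 in OLFM4-knockout and 16 in active-labelled cells, or 0.991 CPM (0.587 to 1.57), 0.584 CPM (0.394 to 0.834) and 0.67 CPM (0.383 to 1.09). The 3 intervals overlapped, and the log2 fold changes of -0.78 (-1.65 to 0.17) and -0.56 (-1.63 to 0.49) were not distinguishable from 0 by counting error. HEY1 was the only gene of the 10 that averaged under 1 CPM. Its relatives were as scarce, with 1, 14 and 5 counts for HEY2 and 9, 21 and 12 for HEYL.

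NRARP (ENSG00000198435, chr9:137299631-137302271, minus strand) encodes a small ankyrin-repeat protein that is induced by Notch and limits it. It had 246 counts in OLFM4-wild, 463 in OLFM4-knockout and 277 in active-labelled cells, or 13.5 CPM (11.9 to 15.3), 9.02 CPM (8.22 to 9.88) and 11.6 CPM (10.3 to 13.0). NRARP was lower in OLFM4-knockout than in OLFM4-wild cells, at -0.59 (-0.81 to -0.36), and in the active-labelled library its value of -0.22 had an interval from -0.48 to 0.03. With library totals these values were -0.94 and -0.34, and the interval for the active-labelled library (-0.59 to -0.09) then lay below 0. The targets thus differed among themselves in OLFM4-knockout cells, with HES1 above 0 with TMM (below it with totals), HES4 spanning it and NRARP below it. Relative to NOTCH1 counts in the same library, a scale chosen after the values were seen, HES1 was 1.24 times as high in OLFM4-knockout as in OLFM4-wild cells (1.16 to 1.32) and NRARP 0.715 times as high (0.611 to 0.836), while in active-labelled cells both intervals included 1 (0.952 to 1.11 for HES1 and 0.902 to 1.28 for NRARP).

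**Figure D3:**
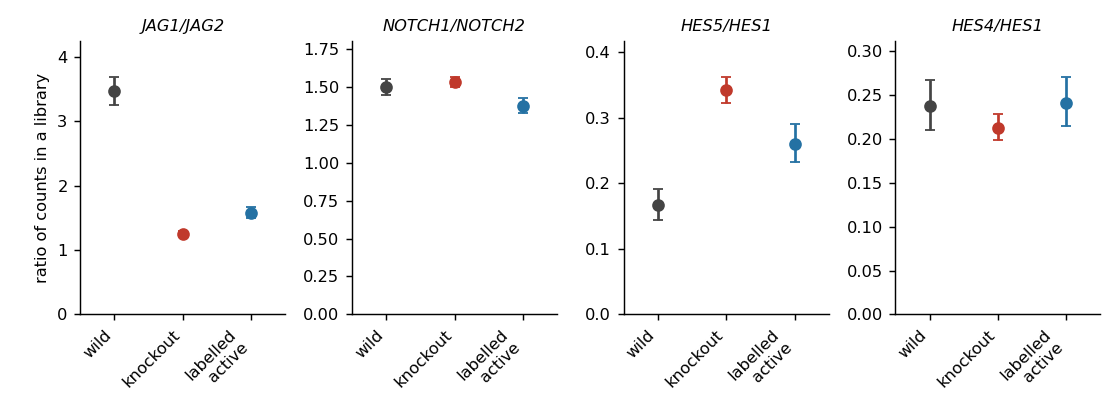
Ratio of the counts of gene pairs within each library, which needs no scaling between libraries, with 95% counting intervals as bars and axes from 0. JAG1 to JAG2 is 3.47 in OLFM4-wild cells and 1.26 and 1.58 in the other libraries, NOTCH1 to NOTCH2 stays between 1.38 and 1.53, HES5 to HES1 is lowest in OLFM4-wild cells at 0.167, and HES4 to HES1 lies between 0.212 and 0.241.

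Taking the 10 genes as a list, the counting interval lay wholly above 0 for 3 and wholly below 0 for 5 in OLFM4-knockout against OLFM4-wild cells, beside 42.4% and 29.8% of all genes. With library totals these counts were 2 and 8, beside 20.9% and 52.6%, and 2 genes (JAG1 and HEY1) lay below -1 and 0 above 1, beside 14.1% and 2.18%. In the active-labelled library against OLFM4-wild, 1 lay above and 6 below, beside 35.2% and 28.1%, and 3.78% of all genes were past 1 and 6.73% past -1. Totals gave 1 and 7 there, beside 26.2% and 36.3% (2.84% past 1, 8.46% past -1). For OLFM4-knockout against the active-labelled library, 6 lay above and 3 below, beside 39.8% and 28% of all genes (2.95% past 1, 3.39% past -1). With totals 1 lay above and 4 below, beside 22.5% and 46.2% (1.29% past 1, 6.97% past -1). The median log2 fold change of the 10 genes was -0.12, -0.24 and 0.13 in these comparisons, and that of all genes 0.10, 0.05 and 0.08. With totals the medians of the 10 genes were -0.47, -0.36 and -0.11, so the last changed sign. By role, the medians against OLFM4-wild were -0.13 and -0.21 for the 3 receptors, 0.64 and 0.19 for the 3 ligands and -0.27 and -0.27 for the 4 targets.

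The order of levels between genes was read per exon length. In OLFM4-wild cells HES1 (75.7 TPM) and NOTCH3 (73.0 TPM) stood at the top with overlapping counting intervals, followed by NOTCH1 (67.4), JAG1 (54.1), NOTCH2 (33.7) with HES4 (33.1), JAG2 (22.7), NRARP (10.2), DLL1 (4.40) and HEY1 (0.36). NOTCH2 and HES4 also overlapped. In OLFM4-knockout cells HES1 (54.8 TPM) stood alone at the top, and JAG1 (19.4), above NOTCH2 and HES4 in OLFM4-wild cells, lay beneath JAG2 (22.5) and HES4 (21.5) and level with NOTCH2 (19.3). DLL1 (4.30) and NRARP (4.27) overlapped there. In the active-labelled library NOTCH3 (61.5) and HES1 (59.0) overlapped at the top, and JAG1 (32.6) lay next to JAG2 (30). This order depends on the length taken. With the longest transcript 7 of 10 genes kept their place in OLFM4-wild cells and 6 in each of the other libraries. On that length JAG1 (27.0 TPM) stood above NOTCH2 (25.1), JAG2 (22.1) and HES4 (20.5) in OLFM4-knockout cells too. For active-labelled cells HES1 (66.9) then stood above NOTCH3 (57.8), and JAG1 (44.3) well above JAG2 (28.8). TPM depends on the total of all genes per length and was used for order within a library only.

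The other genes of the pathway were read from a list of 63, of which 54 averaged 1 CPM or more. In OLFM4-knockout against OLFM4-wild cells 3 of them were past 1 on the log2 scale and 6 past -1, beside 5.77% and 7.56% of all genes, and their median was 0.00. Library totals gave 1 and 12, beside 2.18% and 14.1%. In the active-labelled library 0 lay above 1 and 5 below -1, beside 3.78% and 6.73%. Totals gave 0 and 6 there, beside 2.84% and 8.46%. For OLFM4-knockout against the active-labelled library 2 lay above 1 and 4 below -1, beside 2.95% and 3.39%. With totals these were 0 and 7, beside 1.29% and 6.97%. Several of these counts lie near the share of all genes.

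Further genes on the ligand and target sides were among those that differed. DLK2, a Delta-like protein that lacks the domain for activating Notch and can inhibit it, had 20.4 CPM in OLFM4-wild, 78.2 CPM in OLFM4-knockout and 37.6 CPM in active-labelled cells. Its value of 1.94 (1.78 to 2.09) for OLFM4-knockout was the highest of the 54 genes. DNER, a non-canonical ligand, had 2.64, 6.53 and 2.89 CPM, with 1.29 (0.87 to 1.77) for OLFM4-knockout and an interval that included 0 for the active-labelled library. HES5, a HES gene that Notch induces in many tissues, had 237, 1584 and 399 counts, or 13.0, 30.9 and 16.7 CPM, and a value of 1.24 (1.04 to 1.45) in OLFM4-knockout against OLFM4-wild cells. HES5 belongs to the class of transcripts under 2000 bases, whose median in that comparison was 0.37. The class of DLK2 and DNER, from 2000 to 4000 bases, had a median of 0.18. The part of length in these values was not tested. The ratio of HES5 to HES1 counts, chosen after its values were seen, was 0.167, 0.342 and 0.26, that is 2.05 times as high (1.77 to 2.38) in OLFM4-knockout and 1.56 times as high (1.31 to 1.86) in active-labelled as in OLFM4-wild cells. HES7, the segmentation-clock member of that family, went the other way, with 61, 39 and 33 counts and values of -2.14 (-2.76 to -1.54) and -1.27 (-1.94 to -0.65).

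The nuclear activation complex held 4 of these 6 low genes in OLFM4-knockout cells. Of its 8 genes, 6 had intervals below 0 and 4 passed -1, with a median of -0.84, beside 29.8% and 7.56% of all genes. EP300, a histone acetyltransferase of the complex, had 89.2 CPM in OLFM4-wild, 28.9 CPM in OLFM4-knockout and 52.3 CPM in active-labelled cells, at -1.63 (-1.73 to -1.52) for OLFM4-knockout. CREBBP, its paralog, had 160.1, 74.1 and 163 CPM, at -1.11 (-1.18 to -1.04) for OLFM4-knockout beside 0.02 (-0.05 to 0.09) for the active-labelled library. MAML2, a Mastermind-like coactivator, had 24.8, 10.2 and 16.4 CPM, and MAML3 had 38, 35 and 14 counts, with values of -1.28 (-1.47 to -1.10) and -1.62 (-2.32 to -0.92) in OLFM4-knockout cells. MAML3 stood at 2.09, 0.682 and 0.586 CPM and averaged 1 CPM or more only through the OLFM4-wild library. The filter thus favoured a low MAML3 value against OLFM4-wild, and the counts and medians given here include that gene. RBPJ itself had 77.5, 70.0 and 82.9 CPM and a value of -0.15 (-0.24 to -0.06). In the active-labelled library the median of these 8 genes was -0.29, and MAML3 alone passed -1, at -1.80 (-2.83 to -0.92). EP300 and CREBBP are long transcripts, and the part of length here was not tested either.

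Genes of repression and of receptor turnover completed the set. In OLFM4-knockout against OLFM4-wild cells, 7 of the 11 repression genes had intervals below 0 and 3 above 0. These stood beside 29.8% and 42.4% of all genes. The median of the 11 was -0.44, and 0 passed -1 with TMM, beside 7.56%. With totals 4 did, beside 14.1%. The corepressor SPEN had 192, 105 and 243 CPM in the 3 libraries and was lower in OLFM4-knockout than in active-labelled cells, at -1.21 (-1.27 to -1.16). SPEN is a long transcript, and the part of length in its value was not tested. The class of 8000 bases or more had a median of -0.25 in that comparison. NUMB, an endocytic inhibitor of Notch, had 38.9, 23.6 and 50.9 CPM and -1.11 (-1.23 to -0.99) in the same comparison. The Groucho-type corepressors TLE1 and TLE2 were low in active-labelled against OLFM4-wild cells, at -1.01 (-1.15 to -0.87) and -1.02 (-1.64 to -0.43). Both were also lower in OLFM4-knockout than in OLFM4-wild cells, at -0.65 (-0.76 to -0.54) and -0.96 (-1.44 to -0.47). BCL6, a repressor that acts on Notch targets, had 719, 420 and 174 counts, or 39.6, 8.18 and 7.28 CPM, and was the lowest of the 54 genes in both comparisons with OLFM4-wild, at -2.27 (-2.45 to -2.10) and -2.44 (-2.69 to -2.20). Genes that modify and cut the receptor come last. With TMM none of the 6 fringe and O-glycosylation genes or the 9 cleavage genes passed 1 in either direction. The nearest was the fringe gene MFNG in OLFM4-knockout against active-labelled cells, at -0.99 (-1.67 to -0.31) and -1.23 with totals. MFNG was scarce, with 21, 40 and 37 counts, or 1.16, 0.779 and 1.55 CPM. It averaged 1 CPM or more only through the active-labelled library, so the filter favoured a low MFNG value in that comparison. The medians of the fringe and cleavage groups in OLFM4-knockout against OLFM4-wild cells were 0.23 and 0.06. POFUT1, which adds the O-fucose that ligand binding needs, had 130.1, 155 and 152 CPM, and ADAM10, the protease of the first ligand-induced cut, had 151, 130.4 and 187 CPM. Of the 4 genes that drive ligand endocytosis, NEURL1B was the only one with an interval below 0 in OLFM4-knockout against OLFM4-wild cells with TMM, at -0.74 (-0.80 to -0.67). It had 183, 110.0 and 96.1 CPM. With totals MIB1 lay below 0 as well, at -0.23 (-0.30 to -0.17).

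**Figure D4:**
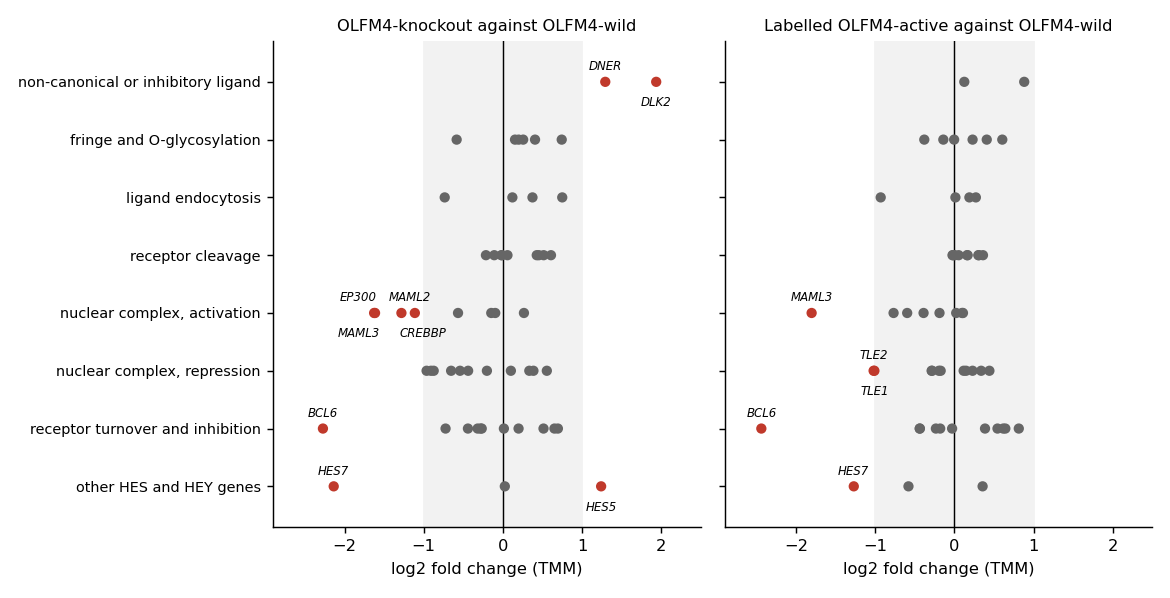
Log2 fold change with TMM against the OLFM4-wild library of the 54 other Notch pathway genes that averaged 1 CPM or more, by role, for OLFM4-knockout (left) and the active-labelled library (right). Each point is a gene, points past 1 or -1 (the band's edges) are red and named. In the left panel 4 of the 8 activation genes lie below -1 and DLK2, DNER and HES5 above 1, and in the right panel no gene lies above 1. MAML3, low in both panels, averaged 1 CPM or more only through the OLFM4-wild library.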

How the data were processed

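Total RNA, depleted of ribosomal RNA, was sequenced as stranded read pairs in 3 libraries of RWPE1 cells, 1 per condition. Per the study's methods the authors aligned reads to GRCh38 with HISAT2 and counted uniquely mapped, reversely stranded pairs per gene with featureCounts, and the deposited values are whole-number counts per gene with no normalization. The submitters' processing notes also name cutadapt. The gene annotation release used for counting is not given in the sources used here. GENCODE release 44, which holds 56948 of the 58037 identifiers, was used for positions, lengths and overlaps. Log2 CPM were computed as in voom (limma 3.58.1) with an offset of 0.5 counts and TMM factors (edgeR 4.0.16) of 1.11, 0.872 and 1.03 for the OLFM4-wild, OLFM4-knockout and active-labelled libraries. A floor of 3 counts is 0.165, 0.0584 and 0.126 CPM in these libraries. Fold changes carry 95% Clopper-Pearson intervals, conditional on the summed counts. Background shares are over genes that averaged 1 CPM or more. With 1 library per condition edgeR gave scaling factors only and no test was made. The procedure was tested on simulated data.

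The 10 genes, the gene lists and the ratios were chosen with earlier results of these data known. All 10 genes are named. Of the other pathway genes, those averaging 1 CPM or more that passed 1 on the log2 scale, and whose interval lay wholly past 0, in any comparison are named, except that a result under this rule is not reported here. NOTCH4, DLL3, DLL4, HEY2, HEYL, RBPJ, MFNG, POFUT1, ADAM10 and NEURL1B are named besides and were chosen after their values were seen, as were all ratios other than JAG1 to JAG2 and NOTCH1 to NOTCH2. Alternatives were library totals, DESeq2 1.42.0 size factors, upper quartile factors, an offset of 5 counts, no filter or one at 10 CPM, sizes without the 10 most abundant genes, thinning to 16309906 counts, a threshold of 2 and the longest transcript as length.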

Additional observations from a re-analysis of the deposited data

How the results depend on the processing

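No paired analysis was possible because each condition has 1 library and the labels carry no replicate numbers, and for the same reason no replicate could be left out. With library totals 2 of the 10 Notch genes (JAG1 and HEY1) passed a log2 fold change of 1 in OLFM4-knockout against OLFM4-wild cells in place of 0, and with thinning 1 did (HEY1, at -1.20). The median of the 10 genes in that comparison was -0.47 with totals, -0.21 with upper quartile factors and -0.069 without the active-labelled library, a setting chosen after seeing the data. In OLFM4-knockout against the active-labelled library the median was -0.11 with totals and 0.020 with upper quartile factors. Values with an interval that excluded 0 and that changed sign were HES1 in OLFM4-knockout against OLFM4-wild (-0.15 with totals) and, in OLFM4-knockout against the active-labelled library, NOTCH1 (-0.013), NOTCH2 (-0.17) and JAG2 (-0.059) with totals, and NOTCH2 (-0.034) with upper quartile factors. HES4 in OLFM4-knockout against OLFM4-wild, whose interval included 0, went from 0.046 to -0.31 with totals and -0.041 with upper quartile factors. Of the other pathway genes in the active-labelled library against OLFM4-wild, 3 passed the threshold with DESeq2 size factors, 9 with no filter on low values and 2 with a filter at 10 CPM. A threshold of log2 2 left 2, 1 and 0 of them in OLFM4-knockout against OLFM4-wild, active-labelled against OLFM4-wild and OLFM4-knockout against active-labelled. A scaling shifts all values of a comparison by a constant, and the filters and the threshold change which genes are counted. The cause of the change with thinning was not tested. Of 513 single-gene values under the alternatives, 431 kept their sign within the counting interval, 66 kept it past that interval and 16 changed sign, of which 11 had an interval that included 0. Depth limits HEY1 most, with 16 to 30 counts in a library.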

Other observations

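Other transcripts lie at the Notch loci. The lncRNA ENSG00000270792, on the opposite strand to JAG1 with 306 shared exon bases, had 154 counts in OLFM4-wild, 327 in OLFM4-knockout and 134 in active-labelled cells, or 8.48, 6.37 and 5.61 CPM, so it was lower than in OLFM4-wild cells in both libraries, as JAG1 was. FAM120B, which shares 370 exon bases with DLL1 on the opposite strand, had 24.8, 26.8 and 35.7 CPM. The lncRNA ENSG00000227512, opposite to NOTCH1 with no shared exon bases, had 21, 48 and 22 counts. The counting was stated to use strand, so these reads were counted apart from the genes they face.

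The genes with the pattern most like that of JAG1, by the distance between their pair of log2 fold changes against OLFM4-wild over the 10596 genes averaging 10 CPM or more, were BUB1B (distance 0.0036), HPS4 (0.0048) and CCDC66 (0.027). A distance of under 0.1 was found for 31 genes. The pair rests on 3 libraries.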
